A study of Mus musculus with 4 samples.

Results

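The genes examined were 43 genes of the G2 phase and of mitosis, listed by name for their known roles in cell division, by a rule that used no measured value. All 43 were found among the 43629 gene identifiers of the count tables, and all 43 passed the low-count filter that left 16500 genes for testing. RNA was measured in cultured CD117+ hematopoietic stem and progenitor cells (HSPCs) of C57Bl/6 mice homozygous for a floxed allele of Chaf1b, a subunit of the histone chaperone CAF-1. The 2 control libraries came from Chaf1b (fl/fl) cells given the empty retroviral vector MIGR1, and the 2 deleted libraries, labelled Chaf1b (-/-), from cells given MIGR1-Cre. In both groups the cells were grown with SCF, IL-6 and IL-3, and those expressing eGFP were sorted 48 h after spinfection, so the cells measured had been infected in either case. The labels give neither the age nor the number of mice behind a library. Replicates are the libraries as labelled. Because the labels do not say that they come from separate cultures or animals, the p-values measure only the spread between these libraries.

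Cells that leave S phase build up cyclins A and B, which activate the kinase CDK1, and CDC25 phosphatases remove the phosphates that hold CDK1 inactive. CDK1, PLK1 and the Aurora kinases then drive chromosome condensation and spindle assembly, the spindle checkpoint holds the cell until each chromosome is attached, and the anaphase-promoting complex destroys cyclin B and securin to let the chromatids part. The transcripts of these genes are made mainly in G2 and mitosis, under the control of the MuvB complex, B-MYB, FOXM1 and NF-Y, and in blood progenitors, which divide often, they are widely used as markers of cycling cells. In RNA from a whole population, fewer cells of a phase or type and less RNA per cell cannot be told apart.

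The promoters of these genes are known for the CHR element, bound by the MuvB complex, and for CCAAT boxes, bound by NF-Y. In the RefSeq promoters of build GRCm38.p6, which run from 250 bases before to 50 bases after the start site, 35 of the 43 genes had an entry. The genes Foxm1, Ccna2, Cdc25c, Aurkb, Incenp, Kif20a, Tpx2 and Smc4 had none. The hexamer TTTGAA, the core of the CHR, was present on either strand in 26 of the 35 (74.3%), against 20.2% of the 27025 genes with a promoter in the table and 14.5% of those tested here. Within 50 bases of the start site the hexamer was found in 65.7% of the members and in 5.72% of all genes of the table. Its variant TTCGAA was found in 11.4% of the members and 1.8% of all genes, and CCAAT in 80% and 41.1%. The 2 motifs TTTGAA and CCAAT occurred together in 65.7% of the members and 7.97% of all genes of the table. Of 34 DNA replication and S-phase genes with a promoter, 11.8% held TTTGAA. These are matches of letters and not sites of binding.

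Upstream stretches of 7 members are shown next, ending at the last base before the start site, 5′ to 3′ on the strand of the gene, in the build GRCm38.p6. Cdk1, Ube2c, Top2a and Ncapg stand for genes whose level was lower in both deleted libraries, and Mki67 for the gene with the largest difference. Cdc20 and Cdc25b stand for the genes with a positive fold change. Capitals mark TTTGAA or its complement TTCAAA, and CCAAT or its complement ATTGG.
Cdk1, chr10:69352913-69352992, minus strand: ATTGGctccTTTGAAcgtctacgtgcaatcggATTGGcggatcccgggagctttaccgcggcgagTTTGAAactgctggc
Ube2c, chr2:164769849-164769928, plus strand: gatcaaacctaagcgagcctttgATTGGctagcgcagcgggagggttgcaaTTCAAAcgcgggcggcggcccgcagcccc
Top2a, chr11:99024190-99024269, minus strand: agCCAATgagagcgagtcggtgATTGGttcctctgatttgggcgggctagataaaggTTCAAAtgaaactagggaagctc
Ncapg, chr5:45669845-45669924, plus strand: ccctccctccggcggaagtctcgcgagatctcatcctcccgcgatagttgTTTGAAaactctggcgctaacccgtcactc
Mki67, chr7:135716380-135716549, minus strand: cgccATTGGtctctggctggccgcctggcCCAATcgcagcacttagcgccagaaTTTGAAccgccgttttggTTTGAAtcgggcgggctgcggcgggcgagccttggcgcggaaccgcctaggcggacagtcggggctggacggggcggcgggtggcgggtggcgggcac
Cdc20, chr4:118437344-118437423, minus strand: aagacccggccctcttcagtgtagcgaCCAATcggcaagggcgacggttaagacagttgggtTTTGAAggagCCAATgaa
Cdc25b, chr2:131186868-131186947, plus strand: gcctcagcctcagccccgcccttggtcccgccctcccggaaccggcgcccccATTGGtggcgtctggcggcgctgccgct
The CHR core nearest to the start begins at position -15 in Cdk1, -23 in Top2a, -29 in Ube2c, -30 in Ncapg and -18 in Cdc20, counted from -1 at the last base shown. In Mki67 it lies farther away, at position -98. The promoter of Cdc25b, a CDK1-activating phosphatase, held a CCAAT box and no TTTGAA, but the variant TTCGAA at position 7 after the start. Of the 9 members without TTTGAA, Bub1 also held TTCGAA. In that of Cdc20, whose level did not separate the groups, both motifs were present, as in those of genes that were lower. Over the 26 members with TTTGAA the median log2 fold change between deleted and control cells was -0.43, and over the 9 without it -0.29.

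**Figure D1:**
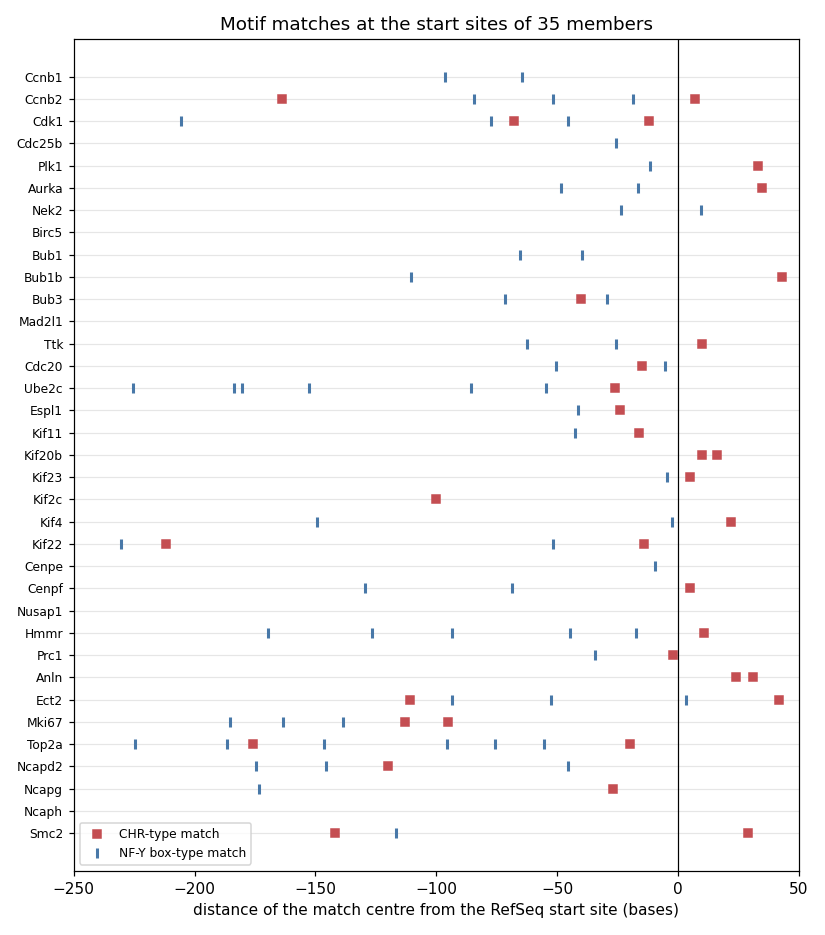
Position of motif matches in the promoters of the 35 members with a RefSeq entry, a line for each gene (at its most upstream start where several are listed), as the distance in bases of the centre of the match from the start site at 0. Red squares are matches to the CHR core and blue bars matches to the NF-Y box, on either strand, and for 23 members a CHR core lies within 50 bases of the start.

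Reads counted on genes numbered between 18468637 and 25409926 per library, and 3 counts, the smallest number set here as a floor, correspond to between 0.118 and 0.162 CPM. A CPM is a count scaled to the library total on genes. Levels are given as CPM, and as RPKM, CPM per kilobase of annotated exon, where genes are compared with each other. The lowest count of any member in any library was 346 and the highest 81129, so all members were far above this floor. Chaf1b had 80.3 and 57.9 CPM in the control libraries and 16.1 and 17.9 CPM in the deleted libraries, a log2 fold change of -2.01 with a standard error (SE) of 0.25 and an adjusted p of 0.0330 (0.0651 with a filter of at least 10 counts in every library and 0.0590 with the replicate block). Its level was lower in both libraries labelled as deleted. Chaf1b-deleted replicate 1 stood apart from the other 3 libraries in transcripts of X and Y. In that library Xist, the RNA of the inactive X chromosome, had 336 CPM against 1.14 to 1.30 CPM, and 4 Y-linked genes had 3 counts in all against 5805 to 7771. By these transcripts Chaf1b-deleted replicate 1 came from female cells and the other 3 libraries from male cells. Sex was thus not balanced between the groups, and its part in the differences was not tested. Chaf1b-deleted replicate 1 was also higher in the 25 interferon-stimulated genes listed, with a summed level of 3149 CPM. The controls had 457 and 481 CPM and Chaf1b-deleted replicate 2 had 574 CPM. The main counts and medians, and the members that it moves most, are therefore also given without it.

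In every group of members the levels of most genes were lower after Chaf1b deletion, and 0 of the 43 passed the test across all genes. Summed over the 43 genes, the level was 11081 and 11512 CPM in the control libraries and 6724 and 7931 CPM in the deleted libraries, or 64.9% of the control mean. Both deleted libraries lay below both controls, and both departed from them by more than the controls differed. Mki67 made up much of this sum, and without it the 4 values were 8138, 8319, 5722 and 6071 CPM, or 71.7% of control. The fitted log2 fold change was negative for 41 of the 43 genes, with a median of -0.39, where the median over all 16500 genes was -0.03. It was -0.07 over the 7804 genes whose mean level was at least that of the lowest member. The 43 values ran from -1.10 for Mki67 to 0.54 for Cdc25b.

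Of the members, 39 had both deleted libraries below both controls, 1 had both above (Cdc25b), and 3 overlapped between the groups (Bub3, Nek2 and Cdc20). Over all genes tested, 22.9% lay below both controls in both deleted libraries and 21.4% above, and 30.6% lay below among the genes at or above the lowest member. With the other scalings tried, between 34 and 38 members lay below. In Chaf1b-deleted replicate 1 there were 39 members under both controls and in Chaf1b-deleted replicate 2 there were 42. The median log2 difference from the control mean was -0.47 in the former and -0.43 in the latter. Between the controls themselves the median log2 ratio of replicate 1 to replicate 2 was 0.02, and 25 of the 43 genes were higher in replicate 1.

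**Figure D2:**
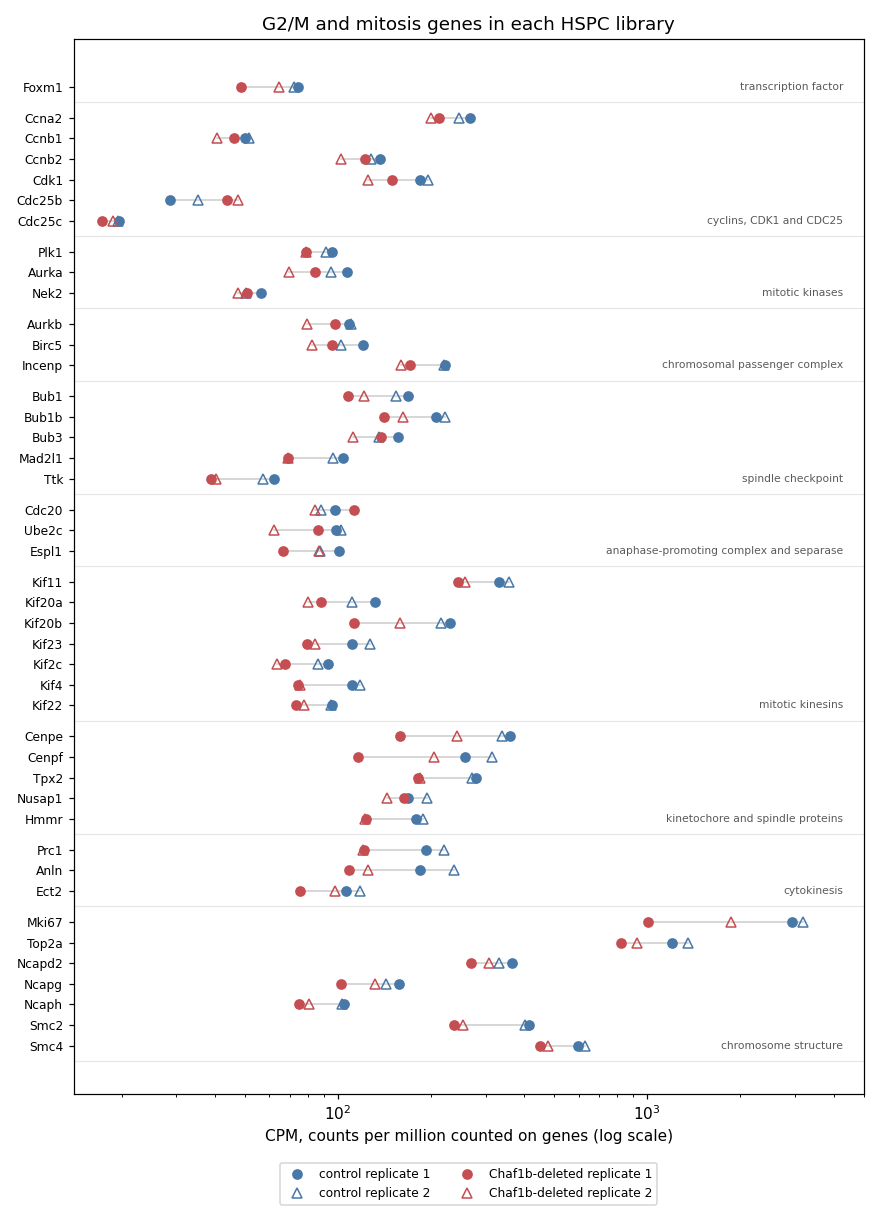
Level of the 43 members in each library, in CPM on a log axis, grouped by role. Blue marks are control and red marks Chaf1b-deleted HSPCs, filled circles replicate 1 and open triangles replicate 2; 39 genes have both red marks to the left of both blue ones, and Cdc25b has both to the right.

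By the edgeR quasi-likelihood test at 1.5-fold and a Benjamini-Hochberg adjusted p under 0.05, 0 of the 43 members were called lower and 0 higher, with 0.00606% of all genes called lower (1 gene, Chaf1b) and 0.37% called higher. At an unadjusted p under 0.05 there were 15 members lower (34.9%) and 1 higher, where 3.1% of all genes were lower and 9.15% higher at that level. Among the genes at or above the lowest member 4.83% were lower. The adjusted p of the members ran from 0.172 for Anln to 0.92 for Cdc25c. edgeR's exact test, its likelihood ratio test and DESeq2 each called 2 members lower, Mki67 and Anln, with 37, 40 and 32 of all 16500 genes called lower (0.224%, 0.242% and 0.194%). The count of 15 depended on the libraries used. It was 4 without control replicate 1 and 2 without control replicate 2, where 1.68% and 1.87% of all genes were lower at that level. It was 22 without Chaf1b-deleted replicate 1 and 8 without Chaf1b-deleted replicate 2, where the shares of all genes were 4.26% and 8.23%. In each of these fits the group left with a single library is assumed to vary like the other. The median log2 fold change was -0.51 without Chaf1b-deleted replicate 1, the library that stood apart, and -0.33 without Chaf1b-deleted replicate 2. Without Chaf1b-deleted replicate 1 the fold change was negative for 42 of the 43 members and lower than with all libraries for 35. Leaving out a library moved the fold change of 18 members by more than 1.5 times, namely Ccna2, Ccnb1, Ccnb2, Cdk1, Cdc25c, Plk1, Aurka, Nek2, Aurkb, Birc5, Incenp, Bub3, Cdc20, Ube2c, Espl1, Kif20a, Kif2c and Nusap1.

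Mki67, whose protein Ki-67 coats mitotic chromosomes and is the common marker of dividing cells, had the highest level of the members and the largest difference. It lies at chr7:142881471-142908062 of NCBIM37 on the minus strand and overlaps no other gene. Its level was 2943 and 3193 CPM in the controls and 1002 and 1860 CPM in the deleted libraries, so that the groups were well apart while the deleted libraries also differed from each other. The log2 fold change was -0.80 without Chaf1b-deleted replicate 1, and with all libraries it was -1.10 (SE 0.33, adjusted p = 0.229 in the edgeR quasi-likelihood test). Per exon length it had the highest level of the members in both groups, with a mean of 304.5 RPKM in control and 142 RPKM in deleted cells. The next by length-scaled level in control cells were Top2a at 141, Smc4 at 122 and Ccnb2 at 86.0 RPKM, and the lowest were Cdc25c at 10.0 and Cdc25b at 8.58 RPKM.

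Top2a, the topoisomerase that untangles sister chromatids, had 1200 and 1355 CPM in control and 821 and 930 CPM in deleted cells. Smc2, the core ATPase of condensin, had 414 and 403 CPM against 238 and 253 CPM, a log2 fold change of -0.71 (SE 0.21, adjusted p = 0.227). Its partner Smc4 had 596 and 629 CPM against 451 and 477 CPM. All 3 genes had both deleted libraries below both controls by more than the distance within either group. The condensin I subunits Ncapd2 (log2 fold change -0.25), Ncapg (-0.34) and Ncaph (-0.39) were nearer to the controls. In Ncapg, with 158 and 143 CPM in control and 102 and 132 CPM in deleted cells, 942 exonic bases overlap Lcorl on the other strand. Of the 7 genes of chromosome structure, 2 were lower at an unadjusted p under 0.05, Mki67 and Smc2, and the median log2 fold change was -0.39.

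The genes of cytokinesis had the lowest median of any role with more than 1 member, at -0.74. Anln encodes anillin, the scaffold of the contractile ring, and lies at chr9:22135658-22193650 of NCBIM37. It had 185 and 237 CPM in control and 109 and 125 CPM in deleted cells, with a log2 fold change of -0.83 (SE 0.21, adjusted p = 0.172). Prc1, which bundles the microtubules of the central spindle, had 193 and 220 CPM in control and 121 and 121 CPM in deleted cells, with a log2 fold change of -0.74 (SE 0.21, adjusted p = 0.206). Both genes had deleted libraries that were close together and far below the controls. For Ect2, the exchange factor that activates RhoA at the cleavage site, the values were 106 and 118 CPM against 75.2 and 97.9 CPM, and the difference of -0.36 on the log2 scale had adjusted p = 0.534.

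Of the 5 kinetochore and spindle proteins 4 were lower at an unadjusted p under 0.05, and the median log2 fold change was -0.56. Cenpe, a kinesin that carries chromosomes to the spindle equator, had 359 and 338 CPM in control and 158 and 242 CPM in deleted cells (log2 fold change -0.79, SE 0.23, adjusted p = 0.220). Cenpf, a large coiled-coil protein of the outer kinetochore, had 258 and 316 CPM against 116 and 205 CPM (log2 fold change -0.84, SE 0.27, adjusted p = 0.253). In both genes Chaf1b-deleted replicate 1 was much lower than Chaf1b-deleted replicate 2, the same order as in Mki67. Tpx2, an activator of Aurora A on the spindle, had 279 and 271 CPM against 181 and 185 CPM, and Hmmr, a microtubule-associated protein, had 179 and 189 CPM against 123 and 122 CPM. In both of the latter genes the deleted libraries were close together and below both controls. Nusap1, which bundles spindle microtubules, was nearest to the controls, with 169 and 194 CPM against 164 and 144 CPM (log2 fold change -0.20, adjusted p = 0.783), and its fold change was -0.41 without Chaf1b-deleted replicate 1 and -0.005 without Chaf1b-deleted replicate 2.

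All 7 mitotic kinesins had both deleted libraries below both controls, and 3 of them were lower at an unadjusted p under 0.05. Kif20b, a kinesin of the midzone, had 231 and 216 CPM in control and 112 and 159 CPM in deleted cells (log2 fold change -0.71, SE 0.21, adjusted p = 0.229). Kif4, a gene on X whose product binds chromosome arms, had 111 and 118 CPM against 74.3 and 75.2 CPM (log2 fold change -0.59, adjusted p = 0.282), and Kif23, a subunit of centralspindlin, had 111 and 127 CPM against 79.5 and 84.1 CPM (-0.52, adjusted p = 0.345). Kif11, the motor that pushes spindle poles apart, had 332 and 357 CPM against 244 and 257 CPM. For Kif20a, Kif2c and Kif22 the log2 fold changes were -0.50, -0.42 and -0.31. Kif4 shares 832 exonic bases with Pdzd11 and Kif20a 1259 with Cdc23, both on the other strand, and the strand setting of the counting is not given in the sources used here, so the counts of these genes are less certain.

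The spindle checkpoint was lower in 4 of its 5 genes at an unadjusted p under 0.05, with a median log2 fold change of -0.48. Ttk, the kinase MPS1 that starts checkpoint signalling, had 62.0 and 57.1 CPM in control and 38.8 and 40.3 CPM in deleted cells (log2 fold change -0.56, SE 0.20, adjusted p = 0.315). Mad2l1, which inhibits the anaphase-promoting complex, had 104 and 96.6 CPM against 68.7 and 68.8 CPM (-0.52, adjusted p = 0.354). The kinases Bub1 and Bub1b had log2 fold changes of -0.47 (adjusted p = 0.385) and -0.48 (adjusted p = 0.381), and in all 4 genes the groups did not overlap. Bub3, their binding partner, did overlap, with 157 and 136 CPM in control and 138 and 112 CPM in deleted cells.

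With all libraries the regulators of mitotic entry had smaller fold changes than most of the structural genes above, and this difference between roles was not tested. Of the 6 cyclin, CDK1 and CDC25 genes 0 were lower at an unadjusted p under 0.05 in the edgeR quasi-likelihood test, and the median log2 fold change was -0.20. Cdk1 itself had 184 and 195 CPM in control and 150 and 125 CPM in deleted cells (log2 fold change -0.43, SE 0.23, adjusted p = 0.512), and its fold change was -0.68 without Chaf1b-deleted replicate 1 and -0.20 without Chaf1b-deleted replicate 2. Ccnb1, cyclin B1, had 49.9 and 51.7 CPM against 46.0 and 40.7 CPM, and Ccnb2, cyclin B2, had 137 and 128 CPM against 122 and 102 CPM. Both cyclins had log2 fold changes of about their SE, -0.20 (SE 0.22) for Ccnb1 and -0.20 (SE 0.23) for Ccnb2. Without Chaf1b-deleted replicate 1 they were -0.40 and -0.46. Ccna2, cyclin A2, was at -0.29 (SE 0.22), with 512 exonic bases overlapping Exosc9 on the other strand. Cdc25c, at 19.6 and 19.4 CPM in control and 17.2 and 18.7 CPM in deleted cells, differed least among these 6 genes. Without Chaf1b-deleted replicate 1, Ccna2 was at -0.45, Cdc25c at -0.14 and Cdc25b at 0.49. In that fit the genes of chromosome structure ran from -0.80 for Mki67 to -0.26 for Ncapd2, with Ncaph and Smc4 at -0.44. The size of the difference between roles thus depended on the libraries used.

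Cdc25b was the exception among the members. It encodes the phosphatase that activates CDK1 at the centrosome and lies at chr2:131012685-131024233 of NCBIM37 on the plus strand, with 92 exonic bases shared with Spef1 on the other strand. It had 28.7 and 35.3 CPM in control and 43.7 and 47.5 CPM in deleted cells, both deleted libraries above both controls. The log2 fold change was 0.54 (SE 0.21, adjusted p = 0.356), and with the exact test, the likelihood ratio test and DESeq2 0 members were higher at an unadjusted p under 0.05.

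The remaining roles held 10 genes of which 0 had an unadjusted p under 0.05 in the edgeR quasi-likelihood test. Among the mitotic kinases, Plk1 had 95.4 and 91.3 CPM in control and 78.9 and 78.6 CPM in deleted cells, and Aurka, the centrosomal Aurora kinase, had 107 and 95.2 CPM against 84.5 and 69.4 CPM. Nek2, a kinase that separates centrosomes, overlapped between the groups (log2 fold change -0.09). In the chromosomal passenger complex, which corrects wrong attachments of chromosomes, Aurkb was at -0.26, Birc5, or survivin, at -0.29 and Incenp, the scaffold, at -0.39, and all 3 had deleted libraries below both controls. With a library left out they ranged from -0.55 to -0.015 for Aurkb, from -0.51 to -0.075 for Birc5 and from -0.56 to -0.24 for Incenp, the values nearest to 0 being those without Chaf1b-deleted replicate 2. Foxm1, the transcription factor that acts on many of the other genes, had 74.5 and 72.0 CPM in control and 48.6 and 64.7 CPM in deleted cells (-0.36, adjusted p = 0.542).

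The genes of exit from mitosis differed in sign. Cdc20, which brings substrates to the anaphase-promoting complex, had 98.2 and 88.4 CPM in control and 113 and 84.3 CPM in deleted cells, so that 1 deleted library was above both controls and the other below both. Its log2 fold change was 0.12 (SE 0.25), and it was -0.23 without Chaf1b-deleted replicate 1. Ube2c, the ubiquitin-conjugating enzyme of that complex, had 98.7 and 102 CPM against 85.9 and 61.9 CPM, and 592 of its exonic bases overlap Tnnc2 on the other strand. The log2 fold change of Ube2c, -0.40, became -0.78 without Chaf1b-deleted replicate 1 and -0.083 without Chaf1b-deleted replicate 2. Espl1, or separase, the protease that cuts cohesin, had 101 and 87.2 CPM against 66.5 and 86.8 CPM, so that its upper deleted library lay just under its lower control.

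**Figure D3:**
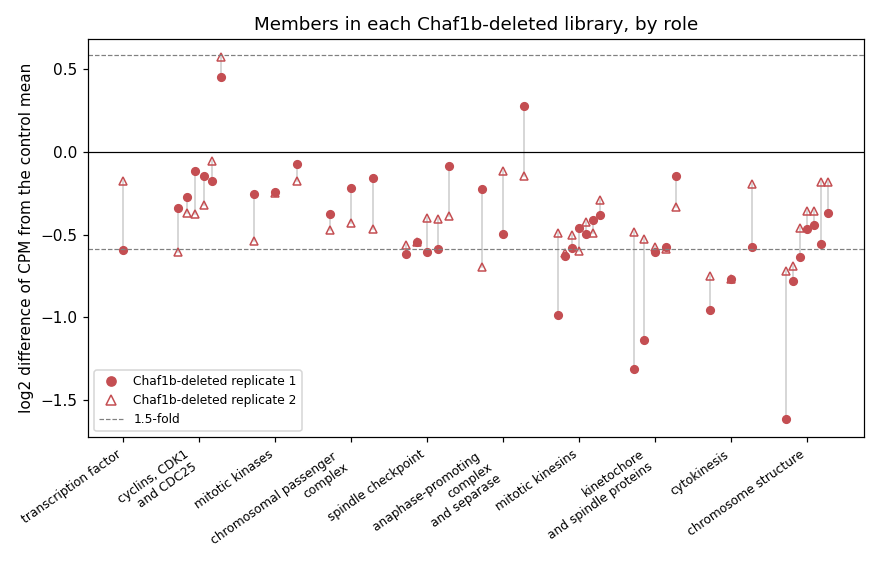
Difference of each member from the control mean, on the log2 scale of CPM, in Chaf1b-deleted replicate 1 (filled circles) and replicate 2 (open triangles), by role, with dashed lines at 1.5-fold. Mki67 is lowest of all in replicate 1, followed by Cenpf, Cenpe, the kinesin gene Kif20b and Anln, and Cdc25b is above 0 in both.

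The deleted libraries differed in which members were lowest. Across the 43 genes, which share the libraries and their depth, the log2 differences of the deleted libraries from the control mean had a Pearson correlation of 0.60, a value that the shared control mean in itself raises. In Chaf1b-deleted replicate 1 the long genes were lower than the short ones. Over the members the Spearman correlation of the log2 fold change with exonic length was -0.61, and it was -0.74 in Chaf1b-deleted replicate 1, -0.24 in Chaf1b-deleted replicate 2 and -0.33 for control replicate 1 over control replicate 2. The median log2 fold change was -0.26 over the 11 members under 3 kb of exon, -0.39 over the 18 from 3 to 5 kb and -0.65 over the 14 above 5 kb. The trend was not particular to the members. Over the 84 other G2/M and mitosis genes described below the correlation was -0.48, with -0.62 in Chaf1b-deleted replicate 1 and -0.18 in Chaf1b-deleted replicate 2. Over the 44 DNA replication and S-phase genes it was -0.50, with -0.55 and -0.29. Genes at or above the lowest member (n = 7725 with a length) had a correlation of -0.12 with the fold change, of -0.35 in Chaf1b-deleted replicate 1 and of 0.21 in Chaf1b-deleted replicate 2. Over the 15049 tested genes with a length it was -0.01 with the fold change. Length moved with the result in this way, and its part in the differences between members was not tested.

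**Figure D4:**
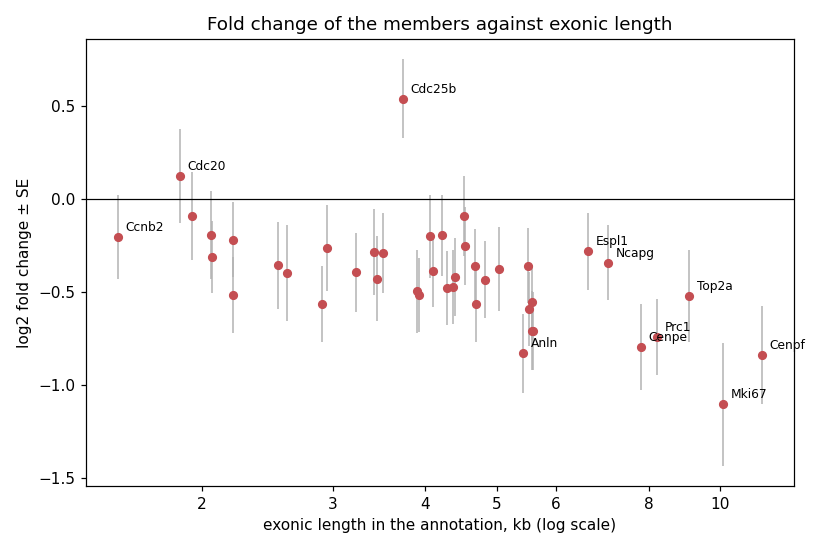
Log2 fold change of each member between Chaf1b-deleted and control HSPCs, with bars of ±1 SE from the edgeR fit, against exonic length in kb on a log axis. Mki67 and Cenpf, both above 10 kb, are among the lowest, and the members under 3 kb have a median of -0.26.

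The other genes of G2 and mitosis, 84 genes of the same pathway that are not members, gave the same sign with a smaller median. Of the 84 tested, 0 were called lower and 0 higher. At an unadjusted p under 0.05 (edgeR quasi-likelihood test) 14 were lower (16.7%) and 1 higher (1.19%), against 3.1% and 9.15% of all genes. The median log2 fold change was -0.26. Without Chaf1b-deleted replicate 1 it was -0.39. Both deleted libraries were below both controls in 54 of them and above in 5, against 22.9% and 21.4% of all genes tested. Aspm, which focuses spindle poles, had 178 and 210 CPM in control and 92.1 and 134 CPM in deleted cells (log2 fold change -0.77, SE 0.22, adjusted p = 0.218). Cdca2, a targeting subunit of protein phosphatase 1 on chromatin, had 116 and 115 CPM against 65.6 and 78.9 CPM. The 1 gene higher, H2afx, encodes the histone variant H2A.X that is phosphorylated at DNA breaks, and had 126 and 151 CPM against 491 and 332 CPM (log2 fold change 1.62, SE 0.29, adjusted p = 0.0798). It was called higher by the exact test, the likelihood ratio test and DESeq2.

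Among the genes of DNA replication and S phase 24 of 44 overlapped between the groups, where 9182 of all 16500 genes did. The controls differed from each other. Summed over 44 genes, the level was 6415 and 5210 CPM in control and 4790 and 4689 CPM in deleted cells. Control replicate 1 was above control replicate 2 in 43 of the 44 genes, by a median of 0.34 on the log2 scale. Both deleted libraries were below both controls in 19 of the 44 and above in 1, against 22.9% and 21.4% of all genes tested. The median log2 fold change was -0.22, with 0 genes called in either direction and 1 lower (2.27%, against 3.1% of all genes) and 0 higher at an unadjusted p under 0.05. The median was -0.02 without control replicate 1, -0.42 without control replicate 2, -0.34 without Chaf1b-deleted replicate 1, with 6 genes lower at an unadjusted p under 0.05, and -0.11 without Chaf1b-deleted replicate 2. The gene lower with all libraries was Lig1, the DNA ligase of Okazaki fragments, with 173 and 137 CPM in control and 102 and 110 CPM in deleted cells. Mcm4, a subunit of the replicative helicase, had 311 and 254 CPM against 192 and 200 CPM, and Pola1, of the primase complex, had 200 and 170 CPM against 116 and 152 CPM. The ratio of the summed members to the summed S-phase genes was 1.73 and 2.21 in control and 1.40 and 1.69 in deleted cells. Without Mki67 it was 1.27 and 1.60 against 1.19 and 1.29, and the groups overlapped.

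**Figure D5:**
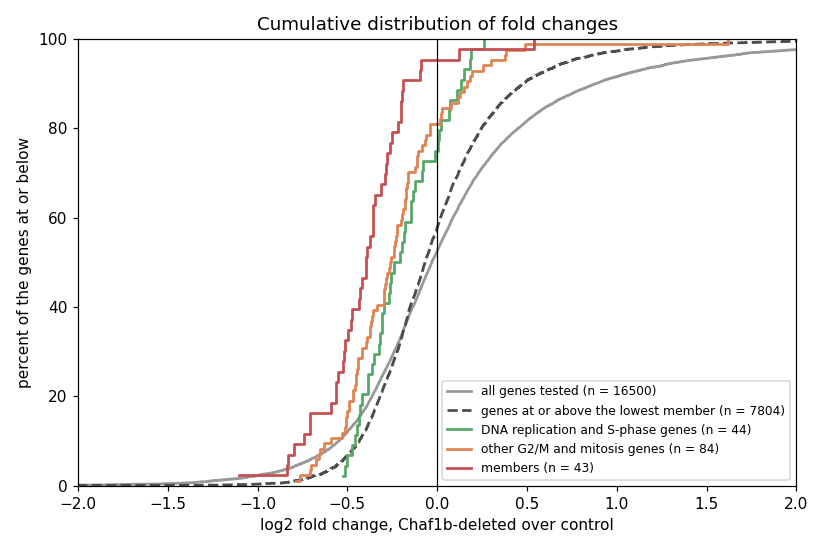
Cumulative percent of genes at or below a given log2 fold change between Chaf1b-deleted and control HSPCs, for the members, the other G2/M and mitosis genes, the S-phase genes, all genes tested and the genes at or above the lowest member. The line of the members lies to the left of the others over most of its course, with a median of -0.39 against -0.26, -0.22, -0.03 and -0.07.

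Among the genes whose proteins act on CDK activity, 1 inhibitor was called higher. Of the 11 G1 cyclins, their kinases and CDK inhibitors that could be tested, 1 was called higher, where 0.37% of all genes were, and 0 lower. At an unadjusted p under 0.05 there were 4 higher (36.4%, against 9.15% of all genes) and 0 lower. The call was Cdkn1c, p57, which had 0.616 and 1.5 CPM in control and 15.6 and 12.4 CPM in deleted cells and rose by 3.76 on the log2 scale (SE 0.50, adjusted p = 0.0371). Cdkn1a, p21, had 59.3 and 77.6 CPM against 111 and 124 CPM (log2 fold change 0.81, SE 0.21, adjusted p = 0.187). Cdkn2b, p15, was below 1 CPM in every library, at 0.308 and 0.236 CPM against 0.85 and 0.92 CPM. The cyclin gene Ccnd1 was also higher at an unadjusted p under 0.05 in the edgeR quasi-likelihood test. It had 1.45 and 7.6 CPM in control and 20.2 and 10.7 CPM in deleted cells (log2 fold change 1.83, SE 0.70, adjusted p = 0.344). In the list of p53 target genes 1 of 21 was called higher, where 0.37% of all genes were. At an unadjusted p under 0.05, 13 were higher (61.9%, against 9.15% of all genes), with a median log2 fold change of 0.82. Without Chaf1b-deleted replicate 1 these were 12 genes and 0.76, and 3 G1 cyclins and inhibitors were higher at that level. The call was Perp, a membrane protein of the apoptotic response, with 11.9 and 12.6 CPM against 41.7 and 46.3 CPM (log2 fold change 1.87, SE 0.22, adjusted p = 0.0330). Btg2, an antiproliferative gene, had 61.7 and 60.6 CPM against 129 and 144 CPM, and Plk2, a stress-induced kinase, had 7.78 and 9.17 CPM against 29.6 and 20.8 CPM. Both were higher in each deleted library, with adjusted p of 0.0692 and 0.0982 in the edgeR quasi-likelihood test.

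The regulators of G2/M transcription lay closer to 0. Of 19 genes 0 were called, and at an unadjusted p under 0.05, 1 was lower (5.26%, against 3.1% of all genes) and 0 were higher. The median log2 fold change was -0.16, or -0.12 without Chaf1b-deleted replicate 1. Nfya, the DNA-binding subunit of NF-Y, was the gene lower with all libraries, with 86.5 and 102 CPM in control and 54.0 and 75.8 CPM in deleted cells (log2 fold change -0.52, SE 0.21, adjusted p = 0.378). Mybl2, which encodes B-MYB, overlapped between the groups, with 82.1 and 63.4 CPM against 68.7 and 72.3 CPM. Rbl1, the p107 subunit of the repressive DREAM complex, had 130 and 132 CPM against 97.3 and 110 CPM, and the repressor E2f8 had 164 and 148 CPM against 115 and 133 CPM. Both lay below the controls, with log2 fold changes of -0.31 each (SE 0.19 and 0.20). Trp53 overlapped between the groups, at 128 and 78.2 CPM against 93.1 and 80.4 CPM.

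The interferon-stimulated genes and the markers of other cells are given beside these values. All 25 interferon-stimulated genes were more than 2-fold above the control mean in Chaf1b-deleted replicate 1 (median log2 difference 3.39), and 1 of 25 in Chaf1b-deleted replicate 2 (0.23). Oasl2 had 8.97 and 11.3 CPM in control and 250 and 20.3 CPM in deleted cells, Oas3 had 33.5 and 32.5 against 315 and 57.3 CPM, and Oas2 had 10.3 and 9.01 against 127 and 18.5 CPM. The part of the interferon-stimulated genes in the differences of the members was not tested. The 9 HSPC markers did not move one way. Flt3, a cytokine receptor of early progenitors, had 4.66 and 5.31 CPM in control and 19.3 and 22.7 CPM in deleted cells and was called higher (log2 fold change 2.09, SE 0.28, adjusted p = 0.0383). Cd34 and Sox4 were above both controls in both deleted libraries, at 93.4 and 134 CPM against 76.9 and 77.6 CPM and at 18.1 and 16.2 CPM against 10.3 and 7.91 CPM. Myb, a transcription factor of blood progenitors, was below both, with 475 and 492 CPM in control and 298 and 335 CPM in deleted cells (adjusted p = 0.313). The other 5, Kit, Gata2, Spi1, Cebpa and Mpo, overlapped between the groups, and the sum of the 9, 3868 to 4569 CPM in control and 3342 to 4423 CPM in deleted cells, is mostly Mpo. The 7 neutrophil genes held 4.50% and 5.25% of the counts in control and 6.52% and 4.89% in deleted cells, and 2 of them were above both controls in both deleted libraries. Megakaryocyte markers were higher in 5 of 6 genes, with 100 to 101 summed CPM in control and 153 to 267 in deleted cells, B cell markers in 5 of 5, with 15.1 to 17.9 against 24.0 to 29.3, and dendritic cell markers in 3 of 5, with 13.5 to 14.9 against 29.1 to 30.5. Over all genes tested, 21.4% had both deleted libraries above both controls. Counts were low for the B cell markers Pax5, at 12 to 23 per library, and Ms4a1, at 10 to 40. Erythroid, monocyte, mast cell and T or NK cell markers overlapped between the groups in their sums, and no marker was at 0 in all libraries. Single genes did separate. Both deleted libraries were above both controls in 2 of 7 erythroid, 2 of 7 monocyte, 1 of 6 mast cell and 1 of 6 T or NK cell markers. In 1 mast cell marker, Ms4a2, both were below. The T cell genes Cd3e and Cd3g had at most 0.382 CPM in any library. The megakaryocyte, B cell and dendritic cell markers that did not overlap, and Flt3, Cd34 and Sox4, were thus higher where most members were lower. Myb was lower, like most members. The part of these genes in the result for the members was not tested.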

How the data were processed

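The deposited values are raw counts per Ensembl gene identifier, 1 table per library, which the authors obtained with STAR, for alignment to mm9, and HTSeq, for counting, without normalization or pooling. The annotation release and the strand setting are not given in the sources used here. Libraries were prepared with a stranded total RNA kit with ribosomal depletion. Reads that fell outside genes were between 35.8% and 48.3% of the uniquely aligned reads, and these summary lines were left out of library sizes. Symbols and exonic lengths were taken from the GENCODE annotation of NCBIM37, which named 33068 of the 43629 identifiers (at least 96.9% of the counts of each library).

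Differential expression was computed with edgeR 4.0.16 and limma 3.58.1 in R 4.3.3 (filterByExpr with a minimum count of 10, TMM factors from 0.926 to 1.06, glmQLFit and glmQLFTest, two-sided, no covariate) over 16500 genes in all 4 libraries, with Benjamini-Hochberg adjustment over all of them. A call needed 1.5-fold and an adjusted p under 0.05. The biological coefficient of variation was 0.276. The SE is the absolute log2 fold change over the square root of the F statistic. CPM are raw counts scaled to the total on genes, without TMM. In correlations with length, 0.5 CPM was added for the values per library. The procedure was tested on simulated data. Replicates differed by more than sampling noise (chi-square per degree of freedom 39.1 in control and 59.7 in deleted libraries). Reads carry no molecular identifiers, so the floor of 3 counts covers counting error only.

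The members were given, by the rule stated above, and the other lists were written with earlier results of these data known. Named are all members, Chaf1b and, in each other list, called genes and those of smallest p until 3 were named, with Mybl2, Rbl1, Cdkn1a and Trp53 in any case. Ccnd1, Xist and the 4 Y-linked genes Ddx3y, Eif2s3y, Kdm5d and Uty, with the cell type markers, were named outside this rule. Of 13 G1 cyclins and CDK inhibitors, Cdkn2d could not be matched and another gene did not pass the filter. Promoter sequences are from RefSeq for GRCm38.p6, and gene coordinates from NCBIM37, both counted from 1. Where a gene had several promoters, any match counted for the shares. Alternatives were DESeq2 size factors, library size or upper-quartile factors, other filters, edgeR's exact and likelihood ratio tests, DESeq2 1.42.0, the replicate number as a block, 2-fold with an adjusted p under 0.01, and each library left out. edgeR's bias-adjusted quasi-likelihood method, and leaving out a library for the lists other than G2/M genes, were added after seeing the data.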

Additional observations from a re-analysis of the deposited data

How the results depend on the processing

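With 2 libraries per group, counts of calls depended on the test. Members called lower numbered 1 without a low-count filter and 2 with edgeR's exact test, its likelihood ratio test or DESeq2, against 0, and from 0 to 1 with each library left out (1, Mki67, without Chaf1b-deleted replicate 2). For Mki67 the adjusted p was 0.0130 without the filter, 0.0196, 0.0178 and 0.00567 with those tests. Anln had 0.0492, 0.0455 and 0.0380 with the last 3 methods. Members lower at an unadjusted p were 9 without the filter and 2 to 22 with a library left out. Members higher were 0 with the exact test, the likelihood ratio test or DESeq2, and 0 to 1 with a library left out. The median log2 fold change of the members was -0.42 with library size only, -0.36 without the filter and -0.51 to -0.33 with a library left out. Without the filter, which tests 31399 genes, the median of all genes was -0.13 in place of -0.03. Among the other G2/M genes, 1 was called higher without the filter and with the exact test, the likelihood ratio test and DESeq2, and 0 to 1 with a library left out. Lower at an unadjusted p were 8 without the filter and 2 to 16 with a library left out, higher were 1 to 3, and their median was -0.39 to -0.15. Members with both groups apart and higher were 1 to 2 with a library left out, and those lower 34 to 42 over all settings. Of 602 values for single members, 590 kept direction and side of the threshold, 8 passed it and 4 changed sign. With each library left out, Ccnb2 ranged from -0.46 to 0.027, Nek2 from -0.26 to 0.065, Bub3 from -0.47 to 0.054 and Cdc20 from -0.23 to 0.42, the first 3 above 0 without Chaf1b-deleted replicate 2 and Cdc20 below 0 without Chaf1b-deleted replicate 1. The cause of these changes was not tested.

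The deviations of same-numbered libraries from the group means had a correlation of 0.0133 over the 16500 genes. With 2 libraries per group this value cannot tell whether the libraries of a number belong together. With the replicate block 0 members were called, 17 were lower and 1 higher at an unadjusted p, and the median was -0.40. The block changed the calls over all genes from 61 higher and 1 lower to 14 and 0. Requiring 10 counts in each library gave 3 higher and 0 lower, so that Chaf1b was called under neither.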
